A study of Mus musculus with 10 samples.

Results

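The macrophage and dendritic cell genes are 43 mouse genes, listed by symbol, that mark these cells or serve their receptors, lysosomes, antigen presentation and motility. Of the 43, 41 had a probe with their symbol here and 38 were detected above background on at least 2 of 10 Illumina bead arrays, among 16272 genes or unnamed probes tested in all. The arrays held RNA from the uterus of CD-1 mice, which are outbred. Between gestation days 9 and 21 the dams were given a daily 5 mg/kg dose of bisphenol A (BPA), a component of plastics with weak estrogenic activity, or DMSO alone. All offspring studied were ovariectomised at 6 weeks of age, so that every group, controls included, lacked ovarian estrogen. At 8 weeks they were injected with 300 ng of estradiol (E2) or DMSO, and the uterus was collected 6 h later. The 4 groups are named by exposure and then injection: vehicle-vehicle (2 arrays), vehicle-E2 (2), BPA-vehicle (3) and BPA-E2 (3). Each array was a pool of RNA within 1 litter. The labels give 2 litters of vehicle-exposed dams and 3 of BPA-exposed dams, each with 1 array per injection, so arrays of the same number and exposure share a litter. The number of animals in a pool is not given in the sources used here.

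Macrophages and dendritic cells are resident in the connective tissue of the uterus, where macrophages clear dying cells and remodel tissue and dendritic cells present antigen to T cells. The survival of macrophages depends on colony-stimulating factor 1 acting through its receptor Csf1r. The identity of both cell types depends on transcription factors that include PU.1, the product of Spi1. Ovarian hormones are known to change the number, the position and the activity of these cells in the uterus over the cycle.

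The arrays were alike in quality. Median raw probe signal ran from 122.3 to 131.9 per array, 43.6% to 46.6% of the 45281 probes were detected, and arrays of a group correlated across probes at r = 0.9922 to 0.9943. All 4 vehicle-exposed arrays shared slide 1 and all 6 BPA-exposed ones slide 2, so in every comparison of exposures the slide and the exposure cannot be told apart. Both E2 responses were measured within a slide. Levels are normalised log2 intensities, a scale on which a difference of 1 is a doubling, and changes carry the standard error (SE) and adjusted p of limma with Benjamini-Hochberg adjustment over all 16272 units. A gene is said to rise or fall where that adjusted p is under 0.05. The p-values measure the spread between these litter pools only, and the number of arrays limits their precision.

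Of the 38 measured members, 32 were detected on all 10 arrays. Among these were Adgre1, Aif1, Csf1r and Lyz2, which mark macrophages, and Cd74 and Cd83, which mark antigen-presenting cells. Fgr and Ctss were detected on 9 arrays, Fcgr1 on 8, Marco on 4, Itgam on 3 and Ptprc on 2. Fcer1g (1 probe), Itgax (2 probes) and Cybb (2 probes) were not well above background on any array and were not tested. Itgax encodes the CD11c integrin by which dendritic cells are usually sorted, so its level cannot be read here. Cd68 and Lyn had no probe named here. Several members are also used by other cells: Lyz2 by neutrophils, Cd74 by B cells and Cd14 by some epithelia.

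Promoter sequence is shown for the 4 members with the smallest p in the BPA effect without E2 among those with a sequence here. It covers the 250 bases before a listed transcription start, from RefSeq on GRCm38.p6, 5′ to 3′ on the strand of the gene. Capitals mark the 6 bases TTCCTC, which are GAGGAA on the opposite strand, a form of the purine-rich element that PU.1 is known to bind. Lyz2 (lysozyme) lies on the minus strand with this window at chr10:117282273-117282522. The window of Fcgr3 (a low-affinity receptor for IgG) is chr1:171059404-171059653, minus strand. That of Ms4a7 (a tetraspanning protein of macrophages) is chr19:11336147-11336396, minus strand. That of Aif1 (the actin-binding protein Iba1) is chr17:35176053-35176302, minus strand.
Lyz2: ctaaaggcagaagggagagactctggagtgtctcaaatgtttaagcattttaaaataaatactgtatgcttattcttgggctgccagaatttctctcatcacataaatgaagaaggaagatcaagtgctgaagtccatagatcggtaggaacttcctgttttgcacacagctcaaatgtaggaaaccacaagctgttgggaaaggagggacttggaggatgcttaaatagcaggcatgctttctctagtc
Fcgr3: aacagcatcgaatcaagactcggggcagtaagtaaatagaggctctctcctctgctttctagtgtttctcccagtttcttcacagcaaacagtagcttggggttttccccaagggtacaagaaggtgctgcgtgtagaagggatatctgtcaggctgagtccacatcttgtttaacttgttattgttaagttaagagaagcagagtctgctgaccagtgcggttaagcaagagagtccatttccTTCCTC
Ms4a7: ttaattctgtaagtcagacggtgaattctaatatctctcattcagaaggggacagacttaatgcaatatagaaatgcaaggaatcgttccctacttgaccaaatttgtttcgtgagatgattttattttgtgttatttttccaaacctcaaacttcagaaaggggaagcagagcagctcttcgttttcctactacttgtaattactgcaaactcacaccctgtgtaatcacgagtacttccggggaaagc
Aif1: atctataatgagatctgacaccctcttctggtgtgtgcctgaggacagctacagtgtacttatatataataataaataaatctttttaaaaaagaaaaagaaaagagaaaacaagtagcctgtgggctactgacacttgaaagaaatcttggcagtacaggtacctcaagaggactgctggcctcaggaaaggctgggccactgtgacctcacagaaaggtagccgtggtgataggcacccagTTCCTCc
The match began 6 bases before the listed start in Fcgr3 and 7 bases before it in Aif1. The Fcgr3 window lies inside the full span of the gene, chr1:171051169-171065915. The Aif1 window overlaps its gene, whose span ends at 35176083, and the match falls in that overlap. For these genes the listed start is therefore not the outermost one. The Lyz2 and Ms4a7 windows held no match in either direction. Of the 43 members, 26 had a window in the table, and 13 of the 26 (50%) held the 6 bases on either strand, against 6252 of 27025 windows of all genes (23.1%). A match describes letters only.

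Most measured members had their highest group mean in the animals that had received neither BPA nor E2. By group mean, 33 of 38 peaked in vehicle-vehicle, 3 in BPA-E2 and 1 each in BPA-vehicle and vehicle-E2. The lowest mean lay in BPA-E2 for 20, in BPA-vehicle for 12, in vehicle-E2 for 5 and in vehicle-vehicle for 1. These counts were not made over all units, so no background share stands beside them. They include Ptprc, highest in BPA-vehicle, and Marco, highest in BPA-E2, which were detected on 2 and 4 arrays. Relative to the mean of each gene's 4 group means, the median member stood at 0.665 and 0.527 on the log2 scale on the vehicle-vehicle arrays. It stood at -0.034 and -0.0054 on the vehicle-E2 arrays, between -0.29 and -0.213 on the BPA-vehicle arrays and between -0.331 and -0.286 on the BPA-E2 arrays. The vehicle-vehicle arrays were thus apart from all others, and the 6 BPA-exposed arrays lay close together whichever injection they had. In whole-organ RNA, fewer cells of a type and less RNA per cell cannot be told apart.

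**Figure D1:**
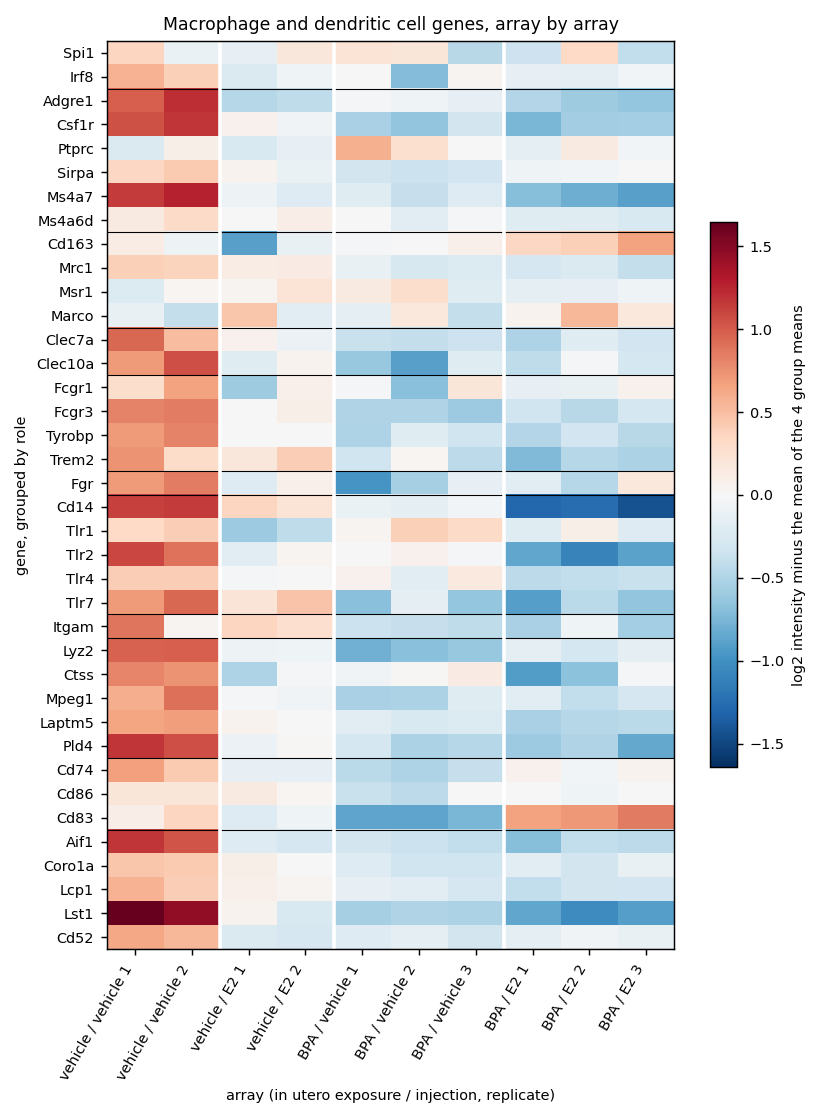
Level of each measured member on each array, relative to the mean of that gene's 4 group means (log2 colour scale), with genes grouped by role and white lines between the 4 groups. The vehicle-vehicle columns are high for most genes, with array medians of 0.665 and 0.527. Cd83, Cd163 and Marco have their highest group mean in BPA-E2, though Marco was detected on only 4 arrays.

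All comparisons were read from 1 fit. The members were chosen with earlier results of these data known. The shares of all units beside their counts are therefore descriptive and not an independent test of the members. With E2 after vehicle in utero, 24 of 38 members fell and 0 rose, where 22.4% of all units passed the test, 11.4% lower and 11% higher. These are limma's adjusted counts, and at an unadjusted p under 0.05 they were 30 and 0. Marco and Msr1 were the members above 0, at 0.39 ± 0.26 (adjusted p = 0.321) and 0.23 ± 0.16 (adjusted p = 0.346). The median change of the members was -0.71 against 0.023 for all units, a median fold of 0.613. With E2 after BPA in utero, 7 fell and 4 rose, where 13.7% of all units fell and 15.3% rose, or 29% in both directions. That total, 11 of 38 (28.9%), is no larger than the background share. The median was -0.11 against 0.032, and it was -0.050 without BPA-E2 array 1 and -0.055 without array 3. Without background correction the medians of both responses were closer to 0, at -0.39 and -0.053.

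The difference of the E2 responses (after BPA minus after vehicle) was positive and passed for 18 of 38 members and negative for 0, where 7.87% of all units passed as positive and 7.7% as negative (15.6% in all). At an unadjusted p under 0.05 these counts were 23 and 1. The median was 0.69 over the members and -0.0095 over all units, and 0.41 over the members without background correction. Of the 24 members that fell after vehicle, 7 also fell after BPA, 4 rose and 13 did not pass. These E2 responses have no array in common.

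**Figure D2:**
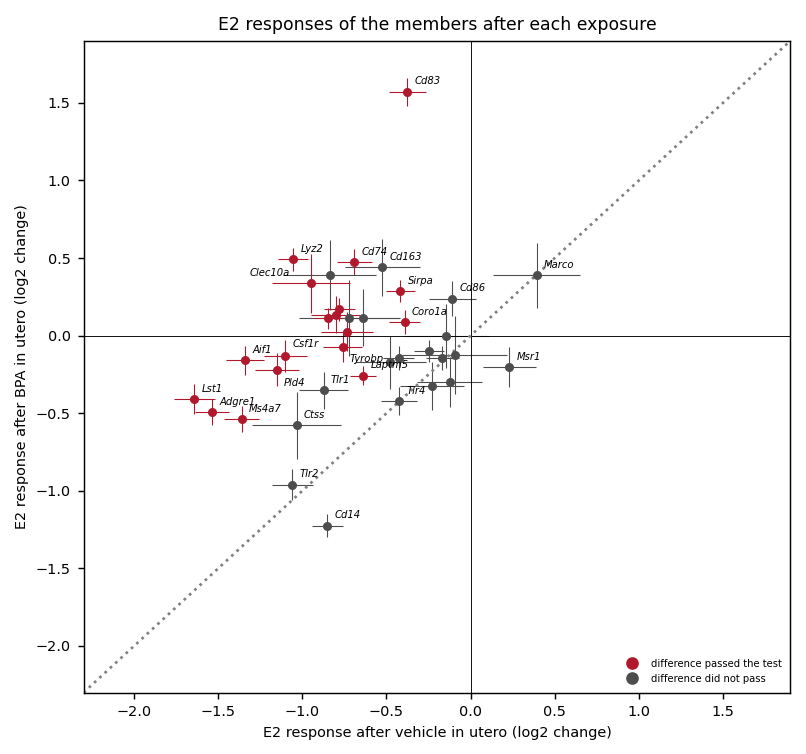
E2 response of each member after vehicle in utero (horizontal, log2 change) and after BPA in utero (vertical, log2 change), with bars for the SE, the dotted line for equal responses, and red for the 18 members whose difference passed the test. Points lie above the line for 32 of 38 members, Cd83 farthest, and Cd14 and Tlr2 are low on both axes.

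In animals not given E2, 31 of 38 members were lower after BPA than after vehicle in utero and 0 were higher, where 15.5% of all units were lower and 15.6% higher (31.1% in all). At an unadjusted p under 0.05 the counts were 32 and 0. The median was -0.87, a fold of 0.548, against 0.015 for all units, and -0.57 without background correction. Among E2-injected animals, 17 members were lower after BPA and 3 higher, where 15.4% and 15.6% of all units were (31% in all), with a median of -0.26 against 0.020. That median was -0.15 without background correction. The BPA effect without E2 and the E2 response after vehicle share the vehicle-vehicle arrays, and the BPA effect under E2 shares the vehicle-E2 arrays, so their values are set side by side below and not related to each other. Levels of the 2 groups did not overlap for 33 of 38 members in the E2 response after vehicle (86.8%, against 59.5% of all units) and for 32 in the BPA effect without E2 (84.2% against 54.7%). They did not overlap for 16 members in the E2 response after BPA (42.1% against 46%) and for 29 in the BPA effect under E2 (76.3% against 56.3%).

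**Figure D3:**
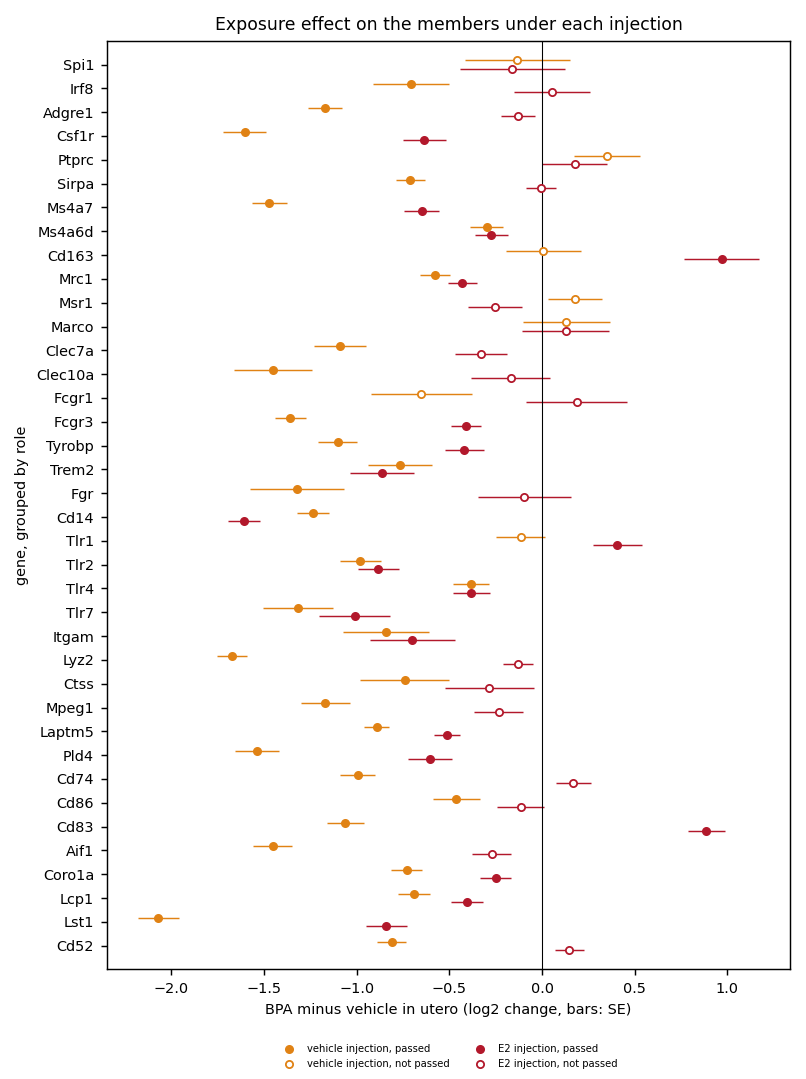
BPA effect on each member (log2 change, BPA minus vehicle in utero, with SE), in vehicle-injected animals (orange) and E2-injected animals (red), with filled points where the test passed. Orange points lie left of 0 for 34 of 38 members, with Lst1 at -2.07, while Cd83, Cd163 and Tlr1 are the filled red points to the right of 0.

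Among the lineage transcription factors, Spi1 encodes PU.1 and Irf8 a factor needed for monocytes and for 1 branch of dendritic cells. Spi1 stood at 6.02 and 5.54 in vehicle-vehicle, 5.53 and 5.85 in vehicle-E2, 5.89, 5.85 and 5.20 in BPA-vehicle and 5.32, 5.99 and 5.26 in BPA-E2. Its groups overlapped throughout, and none of the 5 comparisons passed. Irf8 stood at 7.62 and 7.43 in vehicle-vehicle, 6.80 and 6.97 in vehicle-E2, 7.05, 6.34 and 7.08 in BPA-vehicle and 6.91, 6.90 and 7.00 in BPA-E2. Both vehicle-vehicle arrays were above all others. Irf8 was lower after BPA without E2, at -0.70 ± 0.20 (adjusted p = 0.0295), and its E2 response after vehicle of -0.64 ± 0.22 did not pass (adjusted p = 0.0733), though it did without background correction (-0.38, adjusted p = 0.00771). The BPA call was lost without vehicle-vehicle array 1 (adjusted p = 0.152) or array 2 (adjusted p = 0.0712), and without BPA-vehicle array 2, the lowest of all, the change was -0.46.

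The surface markers and the growth factor receptor fell with E2 after vehicle for 4 of 6 measured genes, where 11.4% of all units fell. Adgre1, which encodes the F4/80 antigen of mouse macrophages, stood at 9.02 and 9.25 in vehicle-vehicle and 7.57 and 7.63 in vehicle-E2. It stood at 8.01, 7.97 and 7.91 in BPA-vehicle and 7.56, 7.45 and 7.40 in BPA-E2. The groups did not overlap within either exposure, and after BPA the step with E2 was the smaller one. Adgre1 fell 2.90-fold with E2 after vehicle (-1.54 ± 0.10, adjusted p = 3.54e-05) and 1.41-fold after BPA (-0.49 ± 0.08, adjusted p = 0.0025), and the difference passed (1.04 ± 0.13, adjusted p = 0.000994). Without E2 it was 2.25-fold lower after BPA (adjusted p = 3.77e-05), while under E2 the exposures differed by -0.13 ± 0.09 (adjusted p = 0.337). Its detected probes differed in that comparison, and their mean gave a lower level after BPA that passed (-0.41, adjusted p = 0.00854).

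Csf1r, the receptor for the growth factors Csf1 and Il34, stood at 9.21 and 9.32 in vehicle-vehicle, 8.23 and 8.10 in vehicle-E2, 7.62, 7.50 and 7.85 in BPA-vehicle and 7.40, 7.57 and 7.60 in BPA-E2. The 6 BPA arrays were below all vehicle-exposed arrays, and BPA-vehicle and BPA-E2 overlapped. Csf1r fell 2.15-fold with E2 after vehicle (-1.10 ± 0.13, adjusted p = 0.000546) and changed by -0.13 ± 0.10 after BPA (adjusted p = 0.387). It was 3.04-fold lower after BPA without E2 (adjusted p = 2.43e-05) and 1.55-fold lower under E2 (adjusted p = 0.00372).

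Ms4a7 stood at 10.24 and 10.36 in vehicle-vehicle, 9.00 and 8.88 in vehicle-E2, 8.90, 8.71 and 8.88 in BPA-vehicle and 8.39, 8.29 and 8.20 in BPA-E2. Levels stepped down from the untreated group to the doubly treated group, with vehicle-E2 and BPA-vehicle level with each other. Its E2 responses were -1.36 ± 0.10 after vehicle (adjusted p = 7.52e-05) and -0.54 ± 0.09 after BPA (adjusted p = 0.00187). With all detected probes of the gene averaged, the response after BPA was -0.39 (adjusted p = 0.0729), the difference 0.61 (adjusted p = 0.114) and the BPA effect under E2 -0.28 (adjusted p = 0.232). Its neighbour on chromosome 19, Ms4a6d, moved little, with group means of 10.17, 10.01, 9.87 and 9.73 in the order above, and was lower after BPA under both injections (-0.30 ± 0.09, adjusted p = 0.033, and -0.28 ± 0.09, adjusted p = 0.0454). The call without E2 was lost without vehicle-vehicle array 2 (adjusted p = 0.196) or BPA-vehicle array 2 or 3 (0.0839 and 0.052). The call under E2 was lost without either vehicle-E2 array (0.0845 and 0.21) or any BPA-E2 array (0.0849, 0.0904 and 0.109).

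Sirpa, the receptor that reads the "do not eat me" signal CD47, stood at 11.27 and 11.37 in vehicle-vehicle, 10.99 and 10.82 in vehicle-E2, 10.63, 10.58 and 10.61 in BPA-vehicle and 10.87, 10.89 and 10.94 in BPA-E2. Under E2 the arrays of both exposures overlapped, while without E2 they were apart. Sirpa fell with E2 after vehicle (-0.42 ± 0.09, adjusted p = 0.00973) and rose after BPA (0.29 ± 0.07, adjusted p = 0.0155). With litter as a block the rise did not pass (adjusted p = 0.0612), nor did it without BPA-E2 array 3 (adjusted p = 0.0572). The fall was lost without vehicle-vehicle array 2 (adjusted p = 0.0604) or vehicle-E2 array 2 (adjusted p = 0.0624), and both calls were lost with the mean of its detected probes (-0.17, adjusted p = 0.436, after vehicle and 0.14, adjusted p = 0.403, after BPA). That mean gave a difference of 0.30 (adjusted p = 0.306) against 0.71 for the probe used. Ptprc, the pan-leukocyte antigen CD45, was detected on 2 arrays, both BPA-vehicle, and passed in no comparison.

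The scavenger and mannose receptors take up modified lipoproteins, haemoglobin and glycans. They had 0 of 4 genes past limma's adjusted threshold in either E2 response or in the difference. Of all units, 22.4% passed in the response after vehicle, 29% after BPA and 15.6% in the difference. At an unadjusted p under 0.05, 2 of these 4 genes were lower after vehicle, 1 was higher after BPA and 1 had a positive difference. Mrc1, the mannose receptor of tissue-resident macrophages, stood at 10.22 and 10.20 in vehicle-vehicle, 9.95 and 9.97 in vehicle-E2, 9.71, 9.58 and 9.61 in BPA-vehicle and 9.56, 9.59 and 9.44 in BPA-E2. The levels stepped down in that order, with the BPA groups overlapping. Mrc1 was lower after BPA without E2 (-0.58 ± 0.08, adjusted p = 0.000848) and under E2 (-0.43 ± 0.08, adjusted p = 0.004). Its E2 response after vehicle of -0.25 ± 0.09 (adjusted p = 0.0762) passed without background correction (adjusted p = 0.038).

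Cd163, the receptor for haemoglobin bound to haptoglobin, stood at 6.73 and 6.52 in vehicle-vehicle, 5.72 and 6.49 in vehicle-E2, 6.59, 6.61 and 6.70 in BPA-vehicle and 6.94, 7.00 and 7.27 in BPA-E2. The 3 BPA-E2 arrays were the highest, and the spread of vehicle-E2 came from its low array 1. Under E2 Cd163 was higher after BPA (0.97 ± 0.20, adjusted p = 0.007), by 0.59 without vehicle-E2 array 1, where the test still passed. Msr1, a class A scavenger receptor, and Marco, another of the class, passed nowhere. Their group means ranged over 0.25 and 0.52, and Marco was not detected on either vehicle-vehicle array.

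Both lectin receptors fell with E2 after vehicle and not after BPA, where 11.4% and 13.7% of all units fell. Clec10a, a galactose-type lectin of macrophages and dendritic cells, changed by -0.95 ± 0.23 after vehicle (adjusted p = 0.0201) and 0.34 ± 0.19 after BPA (adjusted p = 0.223), with a difference of 1.28 ± 0.30 (adjusted p = 0.0214). Clec7a, the beta-glucan receptor Dectin-1, changed by -0.73 ± 0.15 (adjusted p = 0.00982) and 0.03 ± 0.12 (adjusted p = 0.9), with a difference of 0.76 ± 0.20 (adjusted p = 0.033). That difference was 0.29 and did not pass without background correction (adjusted p = 0.0545) or in the authors' processed values (0.0541). With a robust variance trend it did not pass either (0.0927). Without E2 both lectin receptors were lower after BPA, Clec10a at -1.45 ± 0.21 (adjusted p = 0.00111) and Clec7a at -1.09 ± 0.14 (adjusted p = 0.000555). Clec10a lost the fall and the difference without vehicle-vehicle array 2 (adjusted p = 0.112 and 0.0794) or vehicle-E2 array 1 (0.106 and 0.0793). Clec7a lost the fall without vehicle-vehicle array 1 (0.0511) or vehicle-E2 array 2 (0.0613). Its difference was lost without vehicle-vehicle array 1, either vehicle-E2 array, any BPA-vehicle array or BPA-E2 array 2 or 3 (0.0552 to 0.107).

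Fcgr3 is one of the receptors that signal through immunoreceptor adaptors, of which Tyrobp encodes DAP12. Fcgr3 stood at 10.15 and 10.17 in vehicle-vehicle, 9.33 and 9.43 in vehicle-E2, 8.84, 8.84 and 8.74 in BPA-vehicle and 9.00, 8.87 and 9.04 in BPA-E2. The vehicle-exposed arrays were all above the BPA-exposed arrays, and the groups under each exposure did not overlap, in opposite directions. Fcgr3 fell 1.72-fold with E2 after vehicle (-0.78 ± 0.09, adjusted p = 0.00054), changed by 0.17 ± 0.07 after BPA (adjusted p = 0.119), and was 2.56-fold lower after BPA without E2 (-1.36 ± 0.08, adjusted p = 8.5e-06). Fcgr3 is closely similar to Fcgr2b over much of its length, and cross-hybridisation of the probe was not tested.

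Tyrobp fell with E2 after vehicle (-0.76 ± 0.11, adjusted p = 0.00201) and was at -0.08 ± 0.09 after BPA (adjusted p = 0.588), with a difference of 0.68 ± 0.15 (adjusted p = 0.0149). The difference was lost without vehicle-vehicle array 2 (adjusted p = 0.0564) or vehicle-E2 array 1 (adjusted p = 0.0502). Trem2, a lipid-sensing receptor that signals through that adaptor, passed in neither E2 response and was lower after BPA under both injections (-0.77 ± 0.17, adjusted p = 0.00983, and -0.86 ± 0.17, adjusted p = 0.00581). The former was lost without vehicle-vehicle array 1 (-0.55, adjusted p = 0.0845). Under E2 Tyrobp was lower after BPA too (-0.42 ± 0.10, adjusted p = 0.0153), but not without vehicle-E2 array 1 (adjusted p = 0.0677) or array 2 (adjusted p = 0.0721). Fcgr1, the high-affinity IgG receptor, had group means of 5.72, 5.00, 5.07 and 5.19 and passed in no comparison, except that its BPA effect without E2 passed with a robust variance trend (-0.65, adjusted p = 0.0462). Fgr, a Src-family kinase of myeloid cells, was lower after BPA without E2 (-1.32 ± 0.25, adjusted p = 0.00435). With litter as a block its E2 response after vehicle (-0.84, adjusted p = 0.033) and the difference (1.23, adjusted p = 0.0294) also passed, against adjusted p of 0.0614 and 0.0504 without the block.

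**Figure D4:**
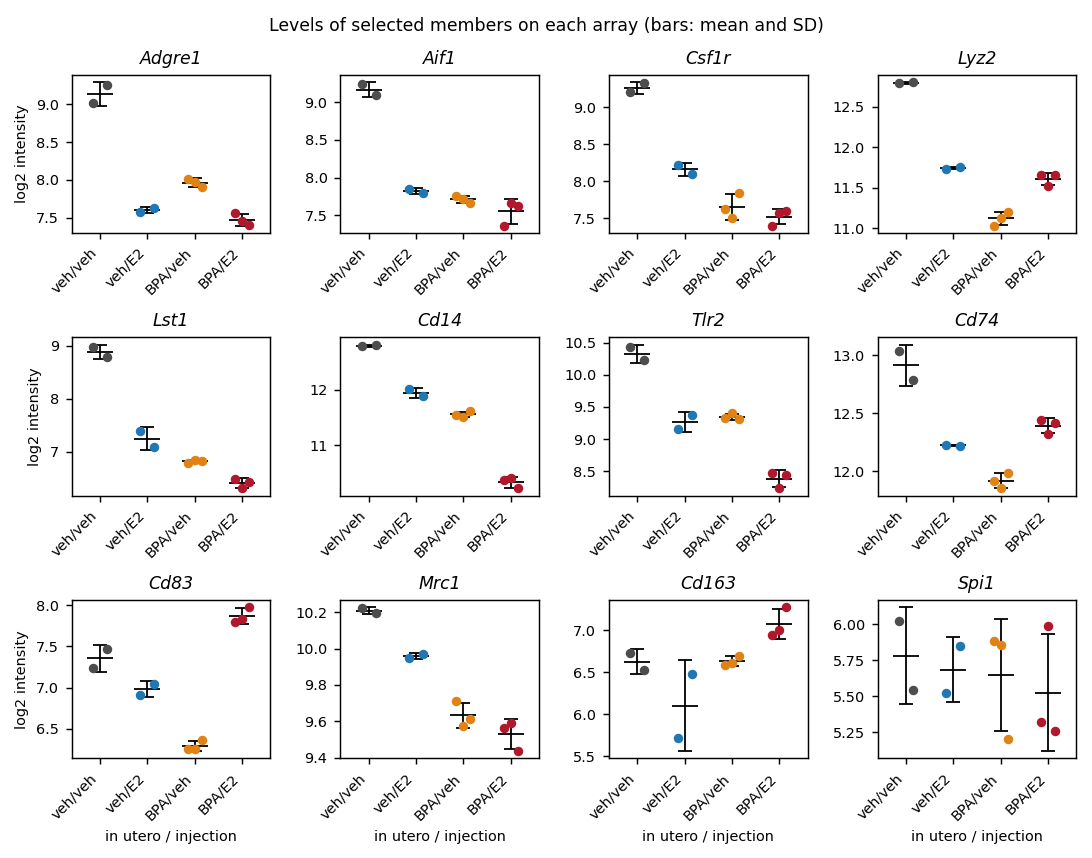
Normalised log2 intensity of selected members on every array, by group, with each point an array and bars for the group mean and SD. Lst1 and Cd14 step down with each treatment, Lyz2 and Cd74 fall with E2 after vehicle and rise after BPA, and Cd83 is highest in BPA-E2.

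The Toll-like receptors sense microbial lipids and nucleic acids, and Cd14 is the coreceptor that hands lipopolysaccharide to Tlr4. With E2, 4 of these 5 genes fell after vehicle, where 11.4% of all units fell. After BPA 3 of 5 fell, where 13.7% of all units did. The difference of the responses passed for 0 of 5 by limma, against 15.6% of all units. At an unadjusted p under 0.05 it was positive for 1 of the 5 and negative for 1. Cd14 stood at 12.78 and 12.80 in vehicle-vehicle, 12.002 and 11.88 in vehicle-E2, 11.54, 11.51 and 11.61 in BPA-vehicle and 10.37, 10.40 and 10.22 in BPA-E2. No group overlapped another, and the step from BPA-vehicle to BPA-E2 was the largest fall of any member with E2 after BPA. Cd14 fell 1.80-fold with E2 after vehicle (-0.85 ± 0.09, adjusted p = 0.000404) and 2.34-fold after BPA (-1.22 ± 0.08, adjusted p = 7.51e-06), a difference of -0.37 ± 0.12 (adjusted p = 0.0706). A robust variance trend brought that difference past the threshold (adjusted p = 0.0022), as did skipping the background correction (adjusted p = 0.0324). It was 2.36-fold lower after BPA without E2 and 3.05-fold lower under E2 (-1.61 ± 0.08, adjusted p = 3.66e-06).

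Tlr2, which with Tlr1 reads bacterial lipopeptides, stood at 10.43 and 10.23 in vehicle-vehicle, 9.16 and 9.38 in vehicle-E2, 9.33, 9.40 and 9.31 in BPA-vehicle and 8.48, 8.23 and 8.45 in BPA-E2. Vehicle-E2 and BPA-vehicle overlapped, between a higher and a lower group. The E2 responses of Tlr2 were -1.06 ± 0.12 after vehicle (adjusted p = 0.000513) and -0.96 ± 0.10 after BPA (adjusted p = 0.000166), with a difference of 0.10 ± 0.16 (adjusted p = 0.731). Tlr4 behaved likewise at a smaller size, at -0.43 ± 0.11 (adjusted p = 0.0239) and -0.42 ± 0.09 (adjusted p = 0.00758). With litter as a block the former did not pass (adjusted p = 0.0517), and it was lost without any 1 of the 4 vehicle-exposed arrays (adjusted p = 0.0813 to 0.0944).

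Tlr1 stood at 7.03 and 7.10 in vehicle-vehicle, 6.10 and 6.28 in vehicle-E2, 6.75, 7.09 and 7.01 in BPA-vehicle and 6.50, 6.80 and 6.49 in BPA-E2. Its vehicle-vehicle and BPA-vehicle arrays overlapped, and of the 4 Toll-like receptors measured it was the 1 whose BPA effect without E2 did not pass (-0.12 ± 0.13, adjusted p = 0.562). Tlr1 fell with E2 after vehicle (-0.87 ± 0.15, adjusted p = 0.00355), and after BPA its change of -0.35 ± 0.12 passed in the fit blocked by litter (adjusted p = 0.0394) and not without it (adjusted p = 0.0572). Under E2 it was higher after BPA (0.41 ± 0.13, adjusted p = 0.0485), a call lost without any 1 of the 5 E2-injected arrays (adjusted p = 0.0589 to 0.232). Tlr7, an endosomal sensor of single-stranded RNA, was lower after BPA without E2 (-1.32 ± 0.19, adjusted p = 0.00107) and under E2 (-1.01 ± 0.19, adjusted p = 0.00434). Its E2 response after vehicle of -0.48 ± 0.21 (adjusted p = 0.142) passed with litter as a block (adjusted p = 0.0336).

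Itgam, the CD11b chain of the complement receptor integrin, stood at 5.82 and 4.99 in vehicle-vehicle, 5.30 and 5.22 in vehicle-E2, 4.59, 4.56 and 4.53 in BPA-vehicle and 4.41, 4.88 and 4.39 in BPA-E2. It was detected on 3 vehicle-exposed arrays and on none of the 6 BPA-exposed arrays. The BPA groups therefore give only a bound, at least 1.26-fold lower after BPA without E2 and at least 1.16-fold lower under E2. The first bound uses the mean of vehicle-vehicle, where only 1 array was detected. The fitted changes were -0.84 (adjusted p = 0.0231) and -0.70 (adjusted p = 0.0483). Itgam passed the detection filter only through the vehicle-exposed arrays, so these calls are not independent of the filter. It is counted among the 31 and 17 members lower after BPA. The first call was lost without vehicle-vehicle array 1 (adjusted p = 0.151) or any BPA-vehicle array (0.0506 to 0.058), and the fitted change was -1.26 without vehicle-vehicle array 2 against -0.84 with it. The other call was lost without either vehicle-E2 array or BPA-E2 array 1 or 3 (0.123 to 0.176).

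Of the lysosome, phagosome and pore-forming proteins, 5 of 5 measured genes fell with E2 after vehicle, where 11.4% of all units did. Without E2, 5 of 5 were lower after BPA, against 15.5% of all units. Lyz2 stood at 12.79 and 12.80 in vehicle-vehicle, 11.73 and 11.75 in vehicle-E2, 11.03, 11.13 and 11.20 in BPA-vehicle and 11.65, 11.52 and 11.65 in BPA-E2. The lowest group was BPA-vehicle, and both E2 groups met between it and vehicle-vehicle. Lyz2 fell 2.08-fold with E2 after vehicle (-1.05 ± 0.09, adjusted p = 0.000112) and rose 1.40-fold after BPA (0.49 ± 0.07, adjusted p = 0.00122), and the difference was 1.54 ± 0.11 (adjusted p = 5.24e-05). The BPA effect was 3.19-fold lower without E2 (-1.68 ± 0.08, adjusted p = 2.87e-06) and -0.13 ± 0.08 under E2 (adjusted p = 0.261). Averaging all its detected probes left the rise after BPA at 0.31 (adjusted p = 0.0552). Lyz1 is a near-identical copy of Lyz2, and cross-hybridisation was not tested here either.

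Laptm5, a lysosomal membrane protein of blood cells, stood at 13.35 and 13.39 in vehicle-vehicle, 12.76 and 12.71 in vehicle-E2, 12.51, 12.45 and 12.48 in BPA-vehicle and 12.17, 12.23 and 12.26 in BPA-E2. All 4 groups were apart. Laptm5 fell with E2 after vehicle (-0.64 ± 0.08, adjusted p = 0.000608) and after BPA (-0.26 ± 0.06, adjusted p = 0.0138), and the difference was 0.38 ± 0.10 (adjusted p = 0.0317). In the fit blocked by litter, neither the fall after BPA (adjusted p = 0.0596) nor the difference (adjusted p = 0.109) passed. The fall after BPA was also lost without BPA-E2 array 1 (adjusted p = 0.0502), and the difference without any 1 array other than BPA-E2 array 1 (adjusted p = 0.0517 to 0.0939).

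Pld4, an endolysosomal exonuclease, and Mpeg1, the pore-forming perforin-2, fell with E2 after vehicle by 1.15 and 0.80 on the log2 scale (-1.15 ± 0.13, adjusted p = 0.00049, and -0.80 ± 0.15, adjusted p = 0.00532). After BPA neither passed (-0.22 ± 0.11 and 0.13 ± 0.12), and both differences did (0.93 ± 0.17, adjusted p = 0.00642, and 0.94 ± 0.19, adjusted p = 0.0112). Ctss, the cathepsin that trims the class II invariant chain, fell with E2 after vehicle (-1.03 ± 0.26, adjusted p = 0.0234) and was lower after BPA without E2 (-0.74 ± 0.24, adjusted p = 0.0454). The fall was lost without either vehicle-vehicle array (0.0914 and 0.0809) or vehicle-E2 array 1 (0.135), and the BPA effect without either vehicle-vehicle array or any BPA-vehicle array (0.0714 to 0.163).

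Antigen presentation and costimulation held Cd83, the member that rose most with E2 after BPA. This marker of mature dendritic cells, also found on activated lymphocytes, stood at 7.24 and 7.47 in vehicle-vehicle, 6.91 and 7.05 in vehicle-E2, 6.26, 6.25 and 6.37 in BPA-vehicle and 7.79, 7.83 and 7.97 in BPA-E2. The BPA-vehicle arrays were the lowest of the series and the BPA-E2 arrays the highest. Cd83 rose 2.97-fold with E2 after BPA (1.57 ± 0.09, adjusted p = 5.31e-06), and the difference of the responses, 1.95 ± 0.14 (adjusted p = 5.11e-05), was the largest of the members. After BPA it was 2.09-fold lower without E2 (adjusted p = 0.000104) and 1.85-fold higher under E2 (adjusted p = 0.000302), the 1 member to pass in both directions. Its small fall after vehicle (-0.38 ± 0.11, adjusted p = 0.0403) was lost without vehicle-vehicle array 2 (adjusted p = 0.205), vehicle-E2 array 1 (0.181) or vehicle-E2 array 2 (0.0686).

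Cd74, the invariant chain that escorts class II molecules, stood at 13.04 and 12.79 in vehicle-vehicle, 12.22 and 12.22 in vehicle-E2, 11.92, 11.85 and 11.99 in BPA-vehicle and 12.44, 12.32 and 12.42 in BPA-E2. Under E2 the exposures were close together, and without E2 they were far apart. Cd74 fell 1.61-fold with E2 after vehicle (-0.69 ± 0.10, adjusted p = 0.00199) and rose 1.39-fold after BPA (0.47 ± 0.08, adjusted p = 0.00329), a difference of 1.16 ± 0.13 (adjusted p = 0.000591). Cd86, a ligand of the T cell receptor CD28, stood at 7.06 and 7.06 in vehicle-vehicle, 7.01 and 6.89 in vehicle-E2, 6.49, 6.43 and 6.87 in BPA-vehicle and 6.85, 6.79 and 6.86 in BPA-E2. Low values were seen on BPA-vehicle arrays 1 and 2 only. Its BPA effect without E2 (-0.46 ± 0.13, adjusted p = 0.0231) was lost without either vehicle-vehicle array (0.0963 and 0.0892) or BPA-vehicle array 1 or 2 (0.0676 and 0.0618).

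The leukocyte cytoskeleton and small leukocyte proteins fell with E2 after vehicle for 5 of 5 genes, where 11.4% of all units fell. They were lower after BPA without E2 for 5 of 5, against 15.5% of all units. Lst1, a small transmembrane protein of leukocytes, stood at 8.98 and 8.79 in vehicle-vehicle, 7.40 and 7.09 in vehicle-E2, 6.79, 6.84 and 6.81 in BPA-vehicle and 6.48, 6.30 and 6.43 in BPA-E2. The 4 groups did not overlap. Lst1 had the largest fall of the members with E2 after vehicle, 3.12-fold (-1.64 ± 0.12, adjusted p = 5.84e-05), and the largest BPA effect without E2, 4.20-fold lower (-2.07 ± 0.11, adjusted p = 4.34e-06). After BPA it fell by 0.41 with E2 (-0.41 ± 0.10, adjusted p = 0.0139), a call lost without BPA-E2 array 2 (adjusted p = 0.0527). Under E2 it was 1.79-fold lower after BPA (-0.84 ± 0.11, adjusted p = 0.000641).

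Aif1 lies beside Lst1 on chromosome 17. Its levels were 9.24 and 9.09 in vehicle-vehicle, 7.86 and 7.79 in vehicle-E2, 7.76, 7.72 and 7.66 in BPA-vehicle and 7.37, 7.67 and 7.63 in BPA-E2. Both vehicle-vehicle arrays were high, and the other 8 arrays lay close together. Aif1 fell 2.53-fold with E2 after vehicle (-1.34 ± 0.11, adjusted p = 0.000121) and changed by -0.16 ± 0.09 after BPA (adjusted p = 0.244), a difference of 1.18 ± 0.15 (adjusted p = 0.000984). The mean of its 2 detected probes gave a fall after BPA that passed (-0.30, adjusted p = 0.0174). Without E2 it was 2.74-fold lower after BPA (-1.45 ± 0.10, adjusted p = 2.33e-05).

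Cd52, a small glycoprotein of the leukocyte surface, stood at 10.50 and 10.41 in vehicle-vehicle, 9.63 and 9.59 in vehicle-E2, 9.65, 9.72 and 9.56 in BPA-vehicle and 9.72, 9.81 and 9.74 in BPA-E2. Only the vehicle-vehicle arrays stood apart. Cd52 fell with E2 after vehicle (-0.85 ± 0.09, adjusted p = 0.000286), was at 0.11 ± 0.07 after BPA (adjusted p = 0.274), and differed by 0.96 ± 0.11 (adjusted p = 0.000622). With its detected probes averaged the difference was 0.41 (adjusted p = 0.0528). Coro1a and Lcp1, which bind actin in leukocytes, fell with E2 after vehicle by smaller amounts (-0.39 ± 0.09, adjusted p = 0.0162, and -0.43 ± 0.09, adjusted p = 0.0122).

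The fall of Coro1a was lost without either vehicle-vehicle array (adjusted p = 0.068 and 0.0588) or vehicle-E2 array 2 (0.0873), and that of Lcp1 without vehicle-vehicle array 1 (0.0726) or vehicle-E2 array 2 (0.0611). The difference for Coro1a (0.48 ± 0.12, adjusted p = 0.0262) did not pass with litter as a block (adjusted p = 0.0716). It was also lost without either vehicle-vehicle array, vehicle-E2 array 2, BPA-vehicle array 2 or 3, or BPA-E2 array 1 or 3 (0.0528 to 0.0892). Under E2, Coro1a was lower after BPA at -0.25 ± 0.08 (adjusted p = 0.0499), a call lost without any 1 of the 5 E2-injected arrays (0.0569 to 0.228). The BPA effect on Tlr4 (-0.38 ± 0.10 under each injection, adjusted p = 0.0185 without E2 and 0.0191 under it) was lost without either vehicle-vehicle array (0.0785 and 0.0773), and under E2 without either vehicle-E2 array or BPA-E2 array 1 (0.0525 to 0.0868).

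Genes outside the members, in lists also chosen with earlier results of these data known, were read in the same 5 comparisons. Of all units, 11.4% fell and 11% rose with E2 after vehicle, and 13.7% fell and 15.3% rose after BPA. The difference passed as positive for 7.87% and as negative for 7.7%. After BPA without E2, 15.5% were lower and 15.6% higher. Of 28 other macrophage and monocyte genes 19 were measured, of which 11 fell and 1 rose with E2 after vehicle, 4 fell and 1 rose after BPA, and 12 were lower and 0 higher after BPA without E2 (2 at an unadjusted p under 0.05). The complement subunits C1qb and C1qc, made by resident macrophages, fell with E2 after vehicle by 0.79 and 0.78 (-0.79 ± 0.09, adjusted p = 0.000582, and -0.78 ± 0.09, adjusted p = 0.000611). Folr2, a folate receptor of resident macrophages, fell by 1.33 (-1.33 ± 0.15, adjusted p = 0.000517). Gpnmb, a glycoprotein of lysosome-rich macrophages, fell after vehicle (-0.88 ± 0.09, adjusted p = 0.000254) and rose after BPA (1.00 ± 0.07, adjusted p = 1.73e-05). Lyve1, on some macrophages and on lymphatic endothelium, was the 1 gene that rose after vehicle (0.94 ± 0.18, adjusted p = 0.00626), and is named for that.

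Of 25 dendritic cell and class II genes 20 were measured, of which 7 fell and 0 rose with E2 after vehicle (1 at an unadjusted p under 0.05), and 8 rose and 1 fell after BPA. The class II chain genes H2-Ab1 and H2-Eb1, whose proteins Cd74 escorts, fell after vehicle (-0.89 ± 0.08, adjusted p = 0.000114, and -0.98 ± 0.10, adjusted p = 0.000284) and rose after BPA (0.54 ± 0.06, adjusted p = 0.000308, and 0.68 ± 0.08, adjusted p = 0.000394). Class II genes are polymorphic and CD-1 mice outbred, and an effect of alleles on the probes was not tested. H2-DMb1, which loads peptide, did the same (-0.76 ± 0.12, adjusted p = 0.00318, and 0.35 ± 0.10, adjusted p = 0.0321). Cd40, a costimulatory receptor, fell after vehicle (-1.02 ± 0.15, adjusted p = 0.00186) and did not pass after BPA (0.24 ± 0.12, adjusted p = 0.175).

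Among 24 signalling partners of Fc receptors 19 were measured, of which 9 fell and 0 rose with E2 after vehicle, 2 fell and 1 rose after BPA, and 10 had a positive and 0 a negative difference. At an unadjusted p under 0.05 both counts of 0 were still 0. Fcgr4, the activating receptor for IgG2, fell by 2.22 after vehicle (-2.22 ± 0.09, adjusted p = 3.52e-06) and by 0.38 after BPA (-0.38 ± 0.07, adjusted p = 0.00375). Fcgr2b, the inhibitory receptor, fell after vehicle (-0.86 ± 0.13, adjusted p = 0.00216) and rose after BPA (0.37 ± 0.11, adjusted p = 0.0319). Pik3ap1, a phosphoinositide kinase adaptor, and Vav1, an exchange factor, fell after vehicle (-1.08 ± 0.10, adjusted p = 0.0002, and -0.71 ± 0.10, adjusted p = 0.00147).

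Of 20 Toll-like receptor and adaptor genes 16 were measured, of which 5 fell and 1 rose with E2 after vehicle, 4 fell and 1 rose after BPA, and 1 had a positive and 0 a negative difference (0 also at an unadjusted p under 0.05). Ly86, the MD-1 partner of a Toll-like protein, fell by 1.43 and 0.45 (-1.43 ± 0.12, adjusted p = 0.000137, and -0.45 ± 0.10, adjusted p = 0.0108). Unc93b1, which carries endosomal Toll-like receptors to their compartment, fell by 1.02 and 0.62 (-1.02 ± 0.19, adjusted p = 0.0062, and -0.62 ± 0.16, adjusted p = 0.0181). Of 20 phagosome oxidase and lysosome genes 16 were measured, of which 9 fell and 0 rose after vehicle (0 also at an unadjusted p under 0.05) and 8 fell and 1 rose after BPA. The cathepsin gene Ctsh and the oxidase subunit gene Cyba fell after both exposures, Ctsh at -0.74 ± 0.08 and -0.84 ± 0.06 (adjusted p = 0.000361 and 2.81e-05). Cyba was at -0.64 ± 0.07 and -0.49 ± 0.06 (adjusted p = 0.000533 and 0.000457).

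Of 14 growth factors and attractants of myeloid cells, 11 were measured, of which 4 rose and 2 fell with E2 after vehicle, and 5 were higher and 3 lower after BPA without E2. The monocyte attractants Ccl7 and Ccl2 rose with E2 after vehicle (0.98 ± 0.12, adjusted p = 0.000661, and 0.88 ± 0.16, adjusted p = 0.00518) and were higher after BPA without E2 (1.26 ± 0.11, adjusted p = 6.09e-05, and 1.08 ± 0.15, adjusted p = 0.000747). Cxcl12, a stromal attractant, rose after both exposures (0.53 ± 0.12, adjusted p = 0.0133, and 0.86 ± 0.10, adjusted p = 0.00026). Csf1, a ligand of Csf1r and named for that after its values were seen, rose with E2 after vehicle (0.67 ± 0.18, adjusted p = 0.0283) and was higher after BPA without E2 (0.78 ± 0.16, adjusted p = 0.00729). The genes named here are the 4 that rose with E2 after vehicle, and the 2 that fell are not named. They do not stand for the list as a whole. Its median change was 0.0185 with E2 after vehicle and 0.0062 after BPA without E2, against 0.0229 and 0.0154 for all units. Il34, the other ligand of Csf1r, was also measured, and its values are not given here. A relation of ligand to receptor levels was not tested.

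Markers of some other cells moved in several of the same comparisons. Of 12 measured neutrophil and eosinophil markers of 19, 6 fell with E2 after vehicle and 9 were lower after BPA without E2, with 0 in the other direction, also at an unadjusted p under 0.05. With E2 after BPA, 3 of the 12 rose and 3 fell, where 15.3% of all units rose and 13.7% fell. S100a8 and S100a9, calcium-binding proteins of neutrophils and monocytes, fell with E2 after vehicle by 1.74 and 2.00 (-1.74 ± 0.08, adjusted p = 7.52e-06, and -2.00 ± 0.13, adjusted p = 3.41e-05) and rose after BPA (0.84 ± 0.06, adjusted p = 2.96e-05, and 1.35 ± 0.10, adjusted p = 3.02e-05). The summed intensity of this list ran from 50960 to 51540 in vehicle-vehicle, 44850 to 44970 in vehicle-E2, 15590 to 16180 in BPA-vehicle and 2966 to 3123 in BPA-E2. It includes Ltf, which the uterine epithelium also secretes and which fell by 3.16 with E2 after BPA (-3.16 ± 0.06, adjusted p = 3.39e-08). From BPA-vehicle to BPA-E2 the sum fell although S100a8 and S100a9 rose, so it does not follow those 2 genes. The part of each gene in the sum was not tested. The neutrophil markers Ly6g, Cxcr2 and Mmp8 and the eosinophil markers Epx and Siglecf were not measured.

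The summed intensity of the 38 members ran from 49790 to 50480 in vehicle-vehicle, 29640 to 30180 in vehicle-E2, 23730 to 24740 in BPA-vehicle and 23490 to 24150 in BPA-E2. That of 8 mast cell markers of 9 was lower only in BPA-vehicle, at 2429 to 2568, against 3375 to 3697 in the vehicle-exposed groups and 4776 to 4919 in BPA-E2. That of 12 epithelial markers of 14 was 31490 to 32050, 21330 to 21720, 24940 to 27480 and 10590 to 11120 in the order above, with 8 of 12 lower with E2 after vehicle and 11 of 12 after BPA. Of the 12 stromal, 10 smooth muscle and 12 endothelial markers, 1, 3 and 2 fell with E2 after vehicle and 1, 0 and 3 rose. With E2 after BPA, 7, 8 and 0 fell and 1, 0 and 4 rose. Under E2, 7, 7 and 1 were lower after BPA and 0, 0 and 4 higher. After BPA without E2, 2, 2 and 3 were lower and 2, 1 and 2 higher. Of all units, 11.4% fell and 11% rose with E2 after vehicle, and 13.7% fell and 15.3% rose after BPA. In the BPA effect, 15.5% were lower and 15.6% higher without E2, and 15.4% and 15.6% under E2. Counts of 1 or 2 in lists of this length are near those shares and are not read as movement. Of the lymphocyte markers, 9 of 22 were used here, of which 2 fell with E2 after vehicle, with Cd4 and Cd8a among those not used. Of 6 measured adipocyte markers 3 fell with E2 after vehicle and 5 rose after BPA, and of 3 measured red cell markers 2 fell with E2 after vehicle and 2 rose after BPA. The part of any of these cells in the values of the members was not tested.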

How the data were processed

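Uterine RNA was measured on 10 Illumina bead arrays. Per the file headers, the deposited non-normalized file gives each probe's mean bead signal, a linear intensity, and the authors' detection p-value against negative controls. The labels' protocols state TRIzol and RNeasy extraction and MessageAmp biotin labelling, and the scanner software is not given in the sources used here. A second deposited table holds intensity values that the authors processed by an unstated method; its columns matched their own arrays best for 10 of 10, and it served as an alternative.

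Signals were corrected and quantile-normalised with neqc in limma 3.58.1 (R 4.3.3, offset 16). Probes detected at p under 0.05 on at least 2 arrays were kept (23942 of 45281), and the probe with the highest mean stood for each gene. Probe names came from the platform annotation, in which 34885 probes have 1 gene symbol, 18 several and 10378 none here. The kept probes gave 12403 genes with a symbol and 3869 unnamed probes, 16272 units in all. The 5 comparisons came from a single limma model of the 4 groups, tested on both sides with moderated statistics and adjusted by Benjamini-Hochberg. Fits were also run on simulated data with independent noise and no litter or slide effect, which cannot speak to those limits of the design. Members, lists and roles were chosen with earlier results of these data known. Values on every array are given for the member with the largest change in each comparison, for the 4 called members with the smallest p in each direction, and for 12 marker genes. Of each other list, up to 4 genes with the smallest p are named. Lyve1, Csf1 and Ltf are named outside that rule, for the reasons given where they appear.

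Labels place same-numbered arrays of an exposure in the same litter. The reported changes and p-values come from the model of the 4 groups, which had no litter term. The pairing entered only an alternative fit. Deviations within a litter correlated at -0.0409 to 0.0222 across units. An alternative fit blocked on litter, as a fixed term within an exposure and, with statmod 1.5.0, as a random one between exposures (consensus correlation 0.00993). Further alternatives left out each array in turn, fitted only the groups compared, averaged a gene's probes, changed the detection filter, used the authors' table or cyclic loess, skipped background correction, or used a robust variance trend. Figures used matplotlib 3.10.9.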

Additional observations from a re-analysis of the deposited data

Results flagged for a closer look

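For 18 members the E2 response after BPA in utero differed from that after vehicle in utero by the test of the difference itself, an interaction term in limma's fit, and each difference was positive. The differences, as log2 changes, were 1.95 for Cd83, 1.54 for Lyz2, 1.28 for Clec10a, 1.23 for Lst1, 1.18 for Aif1, 1.16 for Cd74, 1.04 for Adgre1 and 0.97 for Csf1r. They were 0.96 for Cd52, 0.95 for Fcgr3, 0.94 for Mpeg1, 0.93 for Pld4, 0.82 for Ms4a7, 0.76 for Clec7a, 0.71 for Sirpa, 0.68 for Tyrobp, 0.48 for Coro1a and 0.38 for Laptm5. Of these, 10 passed under every alternative run. Cd52, Clec10a, Clec7a, Coro1a, Laptm5, Ms4a7, Sirpa and Tyrobp missed the threshold under at least 1.

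The exposures lay on different slides, so each response was measured within a slide. No group had enough arrays for a test of single outlying arrays.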

How the results depend on the processing

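No member changed direction in a comparison it had passed, under any alternative run, and each count of members passing stayed within 1.5 times the reported one. The reported calls that held under every alternative run were 16 of 24 for the E2 response after vehicle, 6 of 11 after BPA, 10 of 18 for the difference, 24 of 31 for the BPA effect without E2 and 13 of 20 under E2. Median changes moved by more than their spread between arrays (SD 0.0236). In the order just given they were -0.3923, -0.05272, 0.4067, -0.5723 and -0.1525 without background correction, and -0.3939, -0.05285, 0.4039, -0.5711 and -0.1521 in the authors' table, whose method is not stated. With cyclic loess they were -0.1411 for the response after BPA, -0.9324 for the BPA effect without E2 and -0.2978 under E2. Among the 35 members detected on at least 5 arrays they were -0.7346 for the response after vehicle, 0.7572 for the difference and -0.9816 for the BPA effect without E2. With probes averaged they were -0.6532 for the response after vehicle and 0.4954 for the difference. The cause of these shifts was not tested.

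Leaving out each array gave medians of -0.7449 to -0.6276, -0.1534 to -0.04985, 0.5538 to 0.7192, -0.9678 to -0.8567 and -0.3088 to -0.2354, and 18 to 20, 10 to 12, 14 to 17, 25 to 28 and 14 to 17 members passing, where 2337 to 2459, 3633 to 3968, 1790 to 2233, 3453 to 4447 and 3425 to 4146 of the 16272 units passed. The response after BPA had its smallest median without BPA-E2 array 1. Where 1 array was left in a group, it was assumed to vary like the others. With the compared groups alone, 1431 of all units passed in the response after vehicle, against 3643, and 19 members did.

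With litter as a replicate block, 25, 10 and 17 members passed in the E2 responses and their difference, and 31 and 20 in the BPA effects, where no call of a member changed. Of all units 2702, 3890, 1739, 5064 and 5037 passed in that fit, so the members' share after BPA was again near the background. Other detected probes of members that passed moved the same way for 13 of 15, 7 of 8, 12 of 14, 18 of 18 and 6 of 7 probes. Fewer of them, 8, 4, 5, 13 and 2, also passed in that direction by limma, and 0 passed in the opposite direction.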
